A study of Mus musculus with 21 samples.

Results

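Isoproterenol, a synthetic catecholamine that activates β-adrenergic receptors, was given to newborn mice whose hearts had been cut at the apex, and RNA from the heart apex was compared with that of mice that had the cut alone. Each of the 3 isoproterenol libraries came from an ICR mouse heart sampled at postnatal day 7, after apical resection at the age of 1 day and subcutaneous injection for 7 days. The 3 control libraries came from ICR hearts of the same age whose treatment label names apical resection alone. Their records carry the same protocol text, with injection for 7 days, but it names drugs only, and their titles read NS, which is not spelled out; what the controls were injected with, if anything, is not stated. Every animal of the series had been resected, so no comparison with an uncut heart is made here. In 15 more libraries the resected mice had received 1 of 5 anti-arrhythmic drugs (amiodarone, metoprolol, propranolol, lidocaine or ivabradine, 3 libraries each); they enter the fit and serve to show where isoproterenol differs from other injected drugs. The whole table holds 18762 genes, of which 12124 reached 1 FPKM (fragments mapped to a gene, scaled by transcript length and library size) in at least 3 of the 6 libraries compared and were tested. Whether each library of a group came from an animal of its own is not stated, and the p-values then cover only the variation among these libraries, which may be technical.

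β-adrenergic receptors couple through the stimulatory G protein to adenylyl cyclase, and the cAMP it makes activates protein kinase A, which phosphorylates calcium-handling proteins and the transcription factor CREB. Receptor kinases, arrestins and phosphodiesterases limit the signal. In the first week after birth mouse cardiomyocytes leave the cell cycle, exchange fetal for adult contractile proteins and turn to fatty acids as fuel, and an injured apex heals with scar or with new muscle depending on age.

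Before the results, the libraries themselves differed in 5 ways. The total of all FPKM values was 515823 to 524232 in isoproterenol libraries and 537663 to 551292 in controls, and median-of-ratios scale factors were 0.961 to 0.998 in isoproterenol libraries and 1.05 to 1.07 in controls. The summed FPKM of 4 Y-linked genes was 0.86 to 0.98 in all 3 isoproterenol libraries, and 39.2, 46.6 and 0.98 in control libraries 1, 2 and 3. The labels give no sex. As only control 3 shared the low level, sex and treatment can in large part not be told apart in this comparison. Control 1 had the highest values of most antigen-presentation genes named below, control 2 those of neutrophil genes, and control 3 those of skeletal muscle genes, whereas atrial Myl7 stood at 176 FPKM in isoproterenol library 3 and at 2.59 FPKM or less in the other 5 (2.79 ± 0.98, adjusted p = 0.035; 0.81 to 2.74, adjusted p = 0.081 to 0.15, without any one of isoproterenol 3, control 1 or control 2). The 14 ventricular cardiomyocyte markers summed to 57500, 59800 and 62000 FPKM in isoproterenol hearts and 60200, 58900 and 56600 FPKM in control hearts, so the labelled heart tissue carried its defining markers. The 9 lung epithelium markers summed to 3.21, 2.35 and 2.71 FPKM in isoproterenol hearts and 3.97, 3.94 and 4.64 FPKM in control hearts, with Sftpc, Sftpd and Cldn18 at 0 in all 6. The 11 hepatocyte markers summed to 15.3, 14.5 and 14.3 FPKM in isoproterenol hearts and 15.6, 23.7 and 21.7 FPKM in control hearts, with Fgg at 0 in all 6.

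Of the 12124 genes, 1044 rose with isoproterenol (8.61%) and 3182 fell (26.2%) at a limma p adjusted by Benjamini-Hochberg below 0.05, on log2(FPKM + 1). After median-of-ratios rescaling 2140 rose (17.7%) and 1467 fell (12.1%), so 24.7% of the calls were rises as deposited and 59.3% after rescaling. All 1044 rises and 1467 of the falls were called both ways. The median change of all genes was -0.09 on the log2 scale as deposited and 0.01 rescaled, and list medians below are to be read against -0.09. Counts of list members that rose or fell as deposited are to be read against 8.61% and 26.2%. Of the called genes 7 rose and 135 fell by at least 1 on the log2 scale. Where leaving out 1 library, named by group and number, ended the call of a gene or moved its value by over 1.5 times, the value without it stands after the first. The 3 isoproterenol libraries lay above all 3 controls for 1467 genes (12.1%) and below them for 4010 genes (33.1%).

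A second contrast of the same fit set isoproterenol against the mean of the 5 anti-arrhythmic groups. Its log2 differences do not use the controls, which enter only through the gene filter and the shared estimate of spread. Here 2805 genes were called (23.1%, 34.9% against the control); 1182 were higher with isoproterenol (9.75%) and 1623 lower (13.4%), around a median of -0.01. It shows where isoproterenol hearts stood apart from hearts given other injected drugs. Counts of list members higher or lower in this contrast are to be read against 9.75% and 13.4%. Both contrasts share the 3 isoproterenol libraries, so their values are given side by side and not as support for one another.

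**Figure D1:**
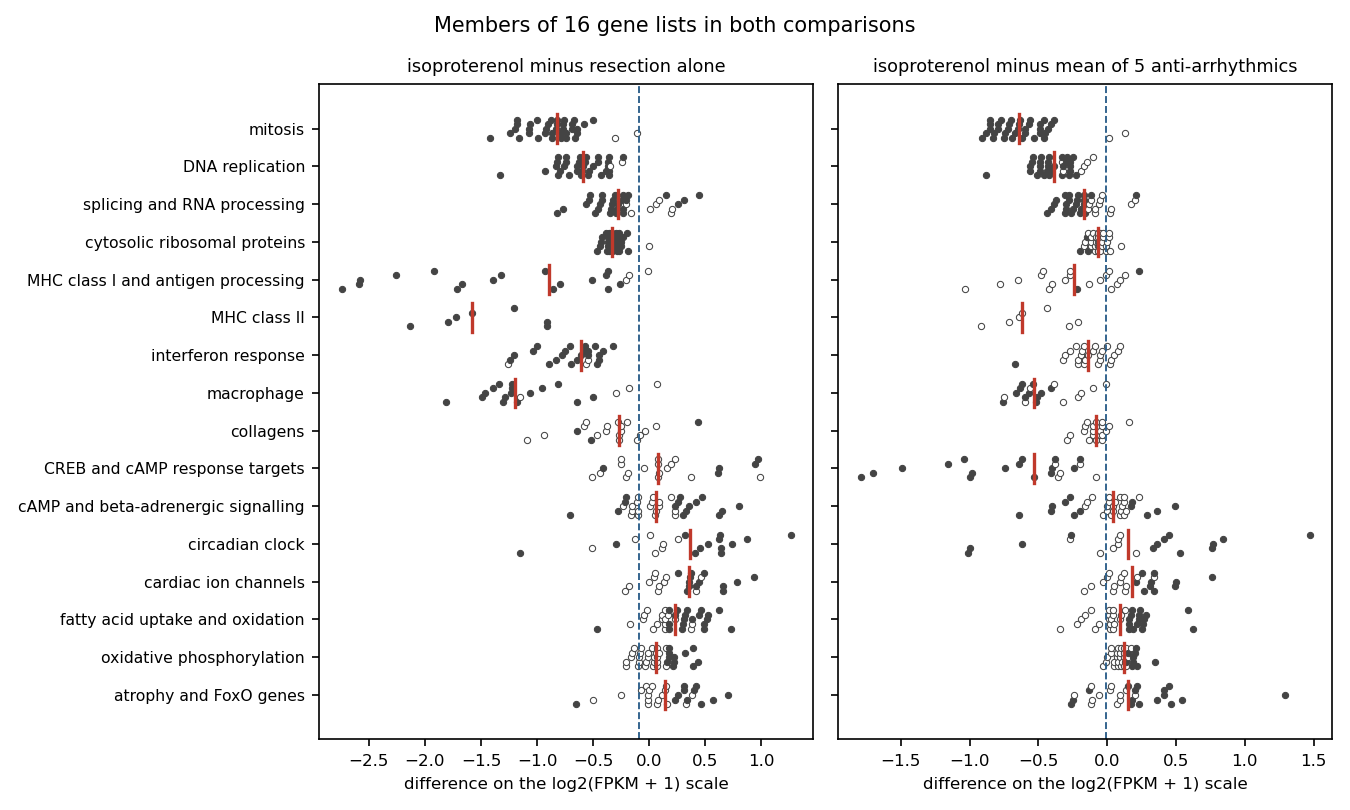
Differences of single genes (points) in 16 gene lists, on the log2(FPKM + 1) scale, for isoproterenol minus resection alone (left panel) and isoproterenol minus the mean of the 5 anti-arrhythmic groups (right panel). Filled points passed the adjusted p threshold, red bars are list medians and the dashed line is the median of all genes tested; the mitosis list lies low in both panels (medians -0.82 and -0.64), and MHC class I lies low on the left (-0.89).

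Adrb1, the main β-adrenergic receptor of cardiomyocytes, rose. It had 15.1, 17.2 and 14.6 FPKM in isoproterenol hearts, against 13.01, 12.5 and 12.9 FPKM in control hearts, and every isoproterenol library lay above every control (log2 change 0.27 ± 0.09, adjusted p = 0.028; 0.20 to 0.27, adjusted p = 0.061 to 0.13, without any one of isoproterenol 2, control 2 or control 3). Against the anti-arrhythmic groups Adrb1 was not called (0.12 ± 0.07, adjusted p = 0.24).

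Of the 36 genes listed for the cAMP pathway 33 were tested. Of these 11 rose and 4 fell, where 8.61% and 26.2% of all genes did, and the median was 0.06. The rises included 3 of 4 cyclases and 3 of 6 targets of kinase A. The 3 tested G protein subunits fell as deposited (Gnas, Gnai2 and Gnai3, -0.28 to -0.21) but none did after rescaling, and without isoproterenol 3 neither Gnai2 (-0.17) nor Gnai3 (-0.23) was called, and Gnai3 was not called without control 3 either (-0.24). Adcy5, a main adenylyl cyclase of heart muscle, had 33.7, 34.2 and 35.5 FPKM in isoproterenol hearts, against 21.7, 16.98 and 19.6 FPKM in control hearts. The 2 groups did not overlap (log2 change 0.80 ± 0.09, adjusted p = 1.9e-05). Adcy6, the other main cardiac cyclase, rose too (0.30 ± 0.07, adjusted p = 0.0036), and so did Adcy9 (0.42 ± 0.07, adjusted p = 0.00036), whereas Adcy4 was not called (-0.16 ± 0.07, adjusted p = 0.061).

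Of genes whose products end the signal, 2 of 6 tested phosphodiesterases rose and 0 fell, and of 6 receptor kinases and arrestins 1 rose and 1 fell; the rest were not called, where 34.9% of all genes were. Against the anti-arrhythmic drugs 1 phosphodiesterase was higher and 3 were lower. Pde3a, which breaks down cAMP near the sarcoplasmic reticulum, had 12.2, 11.7 and 12.2 FPKM in isoproterenol hearts, against 8.35, 6.82 and 7.34 FPKM in control hearts, again without overlap (log2 change 0.62 ± 0.10, adjusted p = 0.00027). Pde4a rose too (0.26 ± 0.07, adjusted p = 0.0063; 0.17, adjusted p = 0.05, without isoproterenol 3), and was higher than under the anti-arrhythmic drugs (0.36 ± 0.05, adjusted p = 9.9e-05). Adrbk2, a receptor kinase that switches receptors off, had 8.14, 6.94 and 7.20 FPKM in isoproterenol hearts, against 5.65, 5.19 and 6.35 FPKM in control hearts (log2 change 0.33 ± 0.10, adjusted p = 0.016; 0.27, adjusted p = 0.068 to 0.08, without either isoproterenol 1 or control 2). Isoproterenol libraries were all above the controls, and this gene too was above the anti-arrhythmic mean (0.49 ± 0.08, adjusted p = 2e-04). Arrb2, an arrestin, had 9.71, 9.77 and 8.22 FPKM in isoproterenol hearts, against 15.2, 17.4 and 14.8 FPKM in control hearts, lower in every isoproterenol library (log2 change -0.71 ± 0.10, adjusted p = 9.3e-05). Neither Pde3a (0.12 ± 0.08, adjusted p = 0.3) nor Arrb2 (-0.15 ± 0.08, adjusted p = 0.2) was called against the anti-arrhythmic groups.

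Downstream, the kinase A regulatory subunit Prkar2a rose (0.47 ± 0.10, adjusted p = 0.0017), and the catalytic subunit Prkaca was not called (0.06 ± 0.05, adjusted p = 0.41). Ryr2, the calcium release channel that kinase A phosphorylates, had 54.3, 60.7 and 65.6 FPKM in isoproterenol hearts, against 37.8, 39.9 and 36.3 FPKM in control hearts. Its groups did not overlap (log2 change 0.65 ± 0.12, adjusted p = 0.00074), and Akap6, the scaffold that ties kinase A to it, rose as well (0.35 ± 0.09, adjusted p = 0.0053). Against the anti-arrhythmic groups, which include the β-blockers metoprolol and propranolol, neither Ryr2 (0.03 ± 0.09, adjusted p = 0.83) nor Adcy5 (0.14 ± 0.07, adjusted p = 0.16) was called, and of the pathway 5 genes were higher and 7 lower. The pathway had 17 rises after rescaling, 8 without control 2 and 7 without replicate 3 of both groups.

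Genes that CREB and cAMP switch on were described against both references. Of 24 listed 21 were tested, and against the control 4 rose and 1 fell. Against the anti-arrhythmic groups 0 were higher and 16 were lower, with a median of -0.53, where 13.4% of all genes were lower. Without control 3, or without isoproterenol library 3, 2 rises were left.

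Sik1, a kinase that CREB induces and that restrains CREB's coactivators, had 15.3, 17.1 and 18.9 FPKM in isoproterenol hearts, against 8.27, 8.11 and 8.89 FPKM in control hearts, and the groups did not overlap (log2 change 0.94 ± 0.23, adjusted p = 0.0043). Group means under the anti-arrhythmic drugs were 21.4 to 65.2 FPKM, all above the isoproterenol mean (-1.16 ± 0.18, adjusted p = 0.00017). Irs2, an insulin receptor substrate, followed the same order: 4.2, 4.30 and 5.94 FPKM with isoproterenol, 1.62, 2.01 and 2.23 FPKM in the control and group means of 8.13 to 27.6 FPKM under the anti-arrhythmic drugs. Its change was 0.97 ± 0.36, adjusted p = 0.041; 0.84 to 1.04, adjusted p = 0.056 to 0.14, without any 1 library against the control and -1.49 ± 0.28, adjusted p = 0.00084 against the drugs. For both genes the isoproterenol mean stood between the control mean and every anti-arrhythmic group mean.

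Per1, a clock gene that is also a CREB target, had 13.2, 15.4 and 18.1 FPKM in isoproterenol hearts, against 10.5, 9.58 and 9.13 FPKM in control hearts (log2 change 0.62 ± 0.19, adjusted p = 0.018; 0.51 to 0.58, adjusted p = 0.058 to 0.091, without either isoproterenol 3 or control 3) and 23.5 to 49.6 FPKM across the anti-arrhythmic group means (-1.0 ± 0.15, adjusted p = 0.00015). Dusp1, a phosphatase that ends MAP kinase signals, had 68.8, 62.5 and 65.3 FPKM in isoproterenol hearts, against 46.3, 38.2 and 43.8 FPKM in control hearts (log2 change 0.61 ± 0.09, adjusted p = 0.00015). It was the one called riser of the list that was not called against the anti-arrhythmic groups (-0.20 ± 0.07, adjusted p = 0.058). Nr4a1, an orphan nuclear receptor, showed 14.5, 19.3 and 15.03 FPKM in isoproterenol hearts, against 7.88, 6.73 and 8.40 FPKM in control hearts, yet the change missed the threshold (0.99 ± 0.43, adjusted p = 0.079). Its group means under the anti-arrhythmic drugs ran over 16.6 to 129 FPKM, and isoproterenol lay lower (-1.70 ± 0.33, adjusted p = 0.0013). Atf3, a stress-induced factor, was not called against the control (-0.25 ± 0.31, adjusted p = 0.55) and lay -1.79 on the log2 scale from the anti-arrhythmic mean (adjusted p = 5.7e-05).

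CREB binds the cAMP response element and its short form TGACG. Of 16 tested members with a RefSeq promoter (GRCm38.p6), 13 held it on either strand in the 250 bases before the start (81.2%). Among all promoters the share was 17.9%. The full element TGACGTCA, which contains the short form on both strands, was in 2, Btg2 and Dusp1. The 3 stretches are shown because they belong to the genes whose order differed between the contrasts or, for Dusp1, that holds the full element. They are written 5′ to 3′ in the direction of transcription, with the element and, in Dusp1 and Per1, the E-box CACGTG in capitals; on the other strand the short form reads CGTCA. Coordinates here and below are those of GRCm38.p6.
Dusp1, chr17:26508577-26508667 (-): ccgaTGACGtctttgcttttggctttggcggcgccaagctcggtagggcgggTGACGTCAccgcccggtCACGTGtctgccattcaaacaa
Nr4a1, chr15:101266771-101266815 (+): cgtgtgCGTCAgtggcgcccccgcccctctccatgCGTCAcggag
Per1, chr11:69098699-69098798 (+): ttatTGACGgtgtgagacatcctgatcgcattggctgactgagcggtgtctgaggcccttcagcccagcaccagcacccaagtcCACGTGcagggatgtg
A match is a description of these letters only.

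**Figure D2:**
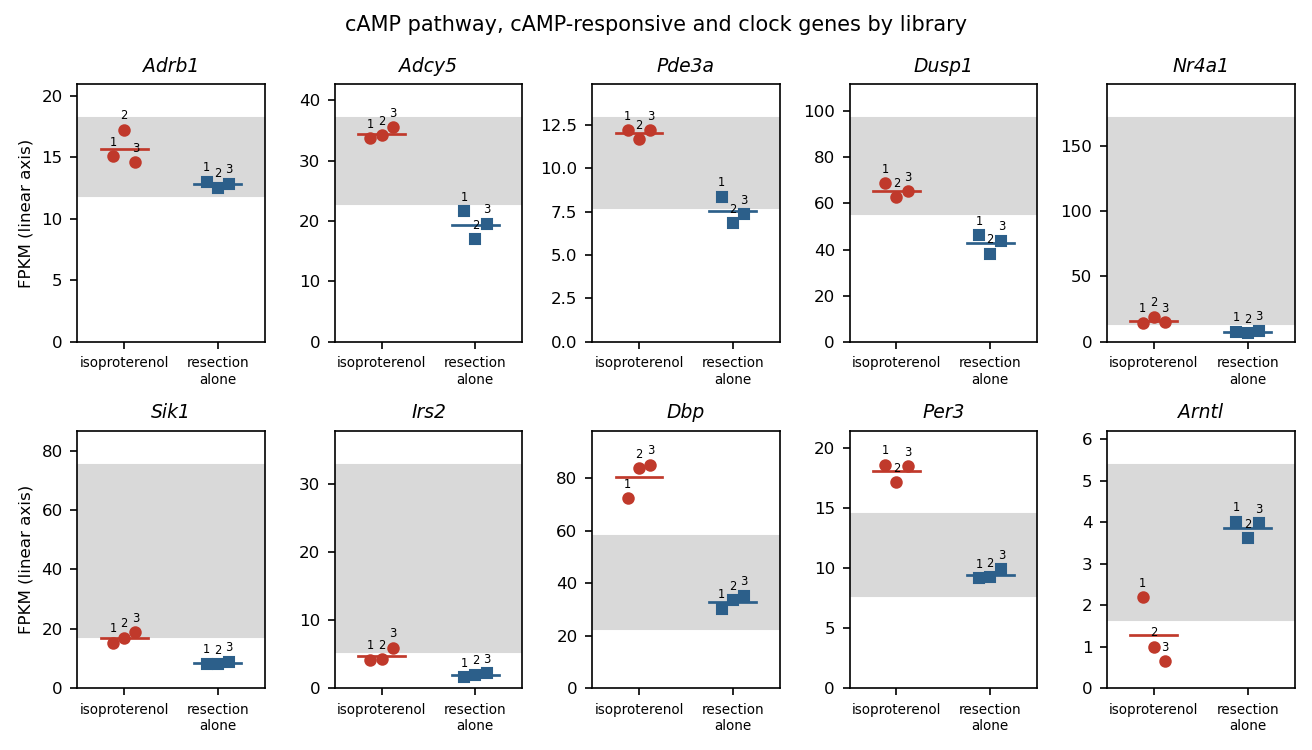
FPKM on linear axes from 0 for 10 genes, with isoproterenol libraries (circles) left of resection-alone libraries (squares), numbered by replicate; bars are means of 3 libraries and the grey band spans the 15 anti-arrhythmic libraries. Sik1, Irs2 and Nr4a1 lie low in the band or below it, and the 3 isoproterenol values of Dbp lie above it.

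Among clock genes, most repressors and output factors rose. Of 5 genes of the activator arm 2 fell, 1 rose and 2 were not called. In the circadian loop the activators Arntl (BMAL1) and Clock switch on the Per, Cry and Nr1d repressors and the output factors Dbp, Tef and Hlf. All 20 listed genes were tested; 11 rose and 2 fell as deposited, with a median of 0.36. Against the anti-arrhythmic groups 9 were higher and 4 lower. The hour of sampling is not given in the labels, so a difference in hour between groups cannot be told apart from the treatment.

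Dbp had 72.5, 83.9 and 85.3 FPKM in isoproterenol hearts, against 30.3, 33.5 and 35.3 FPKM in control hearts (log2 change 1.26 ± 0.15, adjusted p = 2.5e-05). The lowest isoproterenol library was above every other library of the series, since the anti-arrhythmic libraries reached 58.2 FPKM, and the difference from them was 1.47 ± 0.12, adjusted p = 5.6e-07. Per3 had 18.7, 17.2 and 18.5 FPKM in isoproterenol hearts, against 9.20, 9.25 and 9.91 FPKM in control hearts, without overlap (log2 change 0.87 ± 0.11, adjusted p = 4.3e-05), and Tef had 45.2, 47.2 and 49.7 FPKM in isoproterenol hearts, against 26.6, 29.4 and 28.02 FPKM in control hearts (log2 change 0.74 ± 0.09, adjusted p = 3.3e-05). Both were higher than under the anti-arrhythmic drugs too (0.84 and 0.77, adjusted p = 1e-05 and 3e-06).

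Of the repressor arm, Per2 (0.64 ± 0.13, adjusted p = 0.0011), Nr1d1 (0.52 ± 0.15, adjusted p = 0.011), Nr1d2 (0.63 ± 0.12, adjusted p = 0.00063) and Cry2 (0.32 ± 0.07, adjusted p = 0.0023) rose, and Cry1 did not pass (0.05 ± 0.07, adjusted p = 0.59). In the activator arm Arntl fell to 2.19, 1 and 0.66 FPKM in isoproterenol hearts, against 4.01, 3.61 and 3.98 FPKM in control hearts (log2 change -1.15 ± 0.21, adjusted p = 0.00066). The isoproterenol values were uneven, and all 3 lay below the controls. Clock fell by a smaller amount (-0.30 ± 0.08, adjusted p = 0.0067). Wee1, a cell-cycle kinase under clock control, rose (0.41 ± 0.10, adjusted p = 0.0037).

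Of 16 clock genes with a RefSeq promoter 5 held the E-box CACGTG (31.2%, against 6.05% of all promoters), and the D-box TTATGTAA, the site of Dbp, Tef and Hlf, was in 1, Per3, which holds it at 2 places. Both stretches are printed because Per3 and Tef were higher in both contrasts; the D-box in Per3 and the E-box in Tef are in capitals.
Per3, chr4:151044806-151044879 (-): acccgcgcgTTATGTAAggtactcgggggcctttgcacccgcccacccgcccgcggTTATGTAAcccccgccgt
Tef, chr15:81802533-81802572 (+): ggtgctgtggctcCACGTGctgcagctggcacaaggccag

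Many genes of excitation and contraction rose. Of 27 listed cardiac ion channel genes 24 were tested. Of these 13 rose and 0 fell, where 8.61% and 26.2% of all genes did, with a median of 0.35. Against the anti-arrhythmic drugs 10 were higher and 0 lower, where 9.75% and 13.4% of all genes were. The count of rises was 16 after rescaling and 12 to 14 when any 1 library was left out.

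Kcnj5, a subunit of the acetylcholine-gated potassium channel, had 30.6, 33.7 and 32.4 FPKM in isoproterenol hearts, against 22.3, 15.8 and 17.6 FPKM in control hearts (log2 change 0.78 ± 0.11, adjusted p = 9.3e-05). All isoproterenol values exceeded all controls, and it was higher than under the anti-arrhythmic drugs (0.50 ± 0.09, adjusted p = 6e-04). Hcn4, the pacemaker channel, stood at 1.51, 2.31 and 2.23 FPKM in isoproterenol hearts, against 0.74, 0.38 and 0.63 FPKM in control hearts (log2 change 0.93 ± 0.18, adjusted p = 0.001), a low level in both groups. Hcn4 passed the filter through the isoproterenol libraries alone, so its place in the count of rises is in part fixed by the filter. Hcn4 was not called against the anti-arrhythmic groups (0.34 ± 0.14, adjusted p = 0.091). Cacna1h, a T-type calcium channel, rose (0.66 ± 0.14, adjusted p = 0.0018) and was set apart from the anti-arrhythmic groups (0.76 ± 0.11, adjusted p = 9.9e-05). Kcnh2 (0.42), Kcnip2 (0.44), Abcc9 (0.49) and the gap junction gene Gja1 (0.36) also rose, with adjusted p of 0.00052, 0.0029, 0.0049 and 0.001.

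Of 27 calcium-cycling genes 26 were tested; 8 rose, where 8.61% of all genes did, and 8 fell, where 26.2% did, and after rescaling 11 rose and 5 fell. Atp2a2, the sarcoplasmic reticulum calcium pump SERCA2, had 1903, 2411 and 2358 FPKM in isoproterenol hearts, against 1465, 1319.9 and 1339 FPKM in control hearts, one of the 5 largest gains in FPKM. Its groups were well apart (log2 change 0.69 ± 0.09, adjusted p = 5.5e-05), and against the anti-arrhythmic groups it was not called (-0.06 ± 0.07, adjusted p = 0.57). Pln, the pump's inhibitor, rose (0.23 ± 0.07, adjusted p = 0.023; 0.17 to 0.19, adjusted p = 0.1 to 0.12, without any one of isoproterenol 2, control 2 or control 3), and so did Jph2, which holds the calcium release sites together (0.30 ± 0.06, adjusted p = 0.0011). The sodium-calcium exchanger Slc8a1 rose against the control (0.56 ± 0.16, adjusted p = 0.013; 0.51, adjusted p = 0.055, without isoproterenol 3) but was lower than under the anti-arrhythmic drugs (-0.41 ± 0.13, adjusted p = 0.027; -0.45 to -0.36, adjusted p = 0.061 to 0.12, without any one of isoproterenol 1, isoproterenol 2 or isoproterenol 3). Bin1, of the T-tubules, fell (-0.54 ± 0.08, adjusted p = 8.5e-05).

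Of 13 adult sarcomere genes 9 rose and 0 fell (median 0.34). Myh6, the adult heavy chain, had 6013, 6251 and 6689 FPKM in isoproterenol hearts, against 4912, 5059 and 4618 FPKM in control hearts (log2 change 0.38 ± 0.07, adjusted p = 0.001), and Cmya5, a titin-binding protein, had 18.7, 20.1 and 20.8 FPKM in isoproterenol hearts, against 12.9, 11.1 and 10.5 FPKM in control hearts (log2 change 0.74 ± 0.10, adjusted p = 7.2e-05). All isoproterenol values of both exceeded all controls, and neither gene was called against the anti-arrhythmic groups (0.09 ± 0.06, adjusted p = 0.28 and 0.12 ± 0.08, adjusted p = 0.29). Ldb3, a Z-disc protein, had 410.2, 437 and 421 FPKM in isoproterenol hearts, against 358, 328 and 318 FPKM in control hearts (log2 change 0.34 ± 0.05, adjusted p = 0.00022).

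Genes of the fetal programme did not move together: of 13, 2 rose, 4 fell and 7 were not called, where 8.61% of all genes rose and 26.2% fell. Among the rises was Myl7, which was high in isoproterenol library 3 alone and was not called without it. Acta1, skeletal α-actin, had 218, 273 and 553 FPKM in isoproterenol hearts, against 47.2, 122 and 193 FPKM in control hearts, the largest called rise among genes whose groups did not overlap (log2 change 1.62 ± 0.42, adjusted p = 0.0066; 1.06, adjusted p = 0.038, without control 1). The values spread widely in both groups and did not overlap, and the anti-arrhythmic group means were 54.8 to 224 FPKM (1.71 ± 0.33, adjusted p = 0.0011). In a limma fit to only the groups compared, Acta1 was not called against the control (adjusted p = 0.052). Acta2, smooth muscle actin, had 174, 146 and 199 FPKM in isoproterenol hearts, against 263, 301 and 287 FPKM in control hearts (log2 change -0.72 ± 0.13, adjusted p = 0.00043), and lay below the anti-arrhythmic mean as well (-1.05 ± 0.10, adjusted p = 2.3e-06). The actin genes have near-identical coding sequences and how reads shared between genes were assigned is not given, so their values are less certain. Ckb, the brain form of creatine kinase, fell (-0.57 ± 0.08, adjusted p = 7.2e-05). Myh7, the fetal heavy chain, stood at 86.3, 35.7 and 24.7 FPKM in isoproterenol hearts, against 150.1, 51.9 and 153 FPKM in control hearts, and overlapping values left it uncalled (-1.3 ± 0.55, adjusted p = 0.074).

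Of the natriuretic peptides one fell and one was not called. Nppb (BNP), released by stretched ventricle, fell to 118, 128 and 135 FPKM in isoproterenol hearts, against 289.9, 272 and 342 FPKM in control hearts (log2 change -1.24 ± 0.33, adjusted p = 0.0082). The lowest control exceeded the highest isoproterenol library by a wide margin, and the anti-arrhythmic group means were 328 to 503 FPKM (-1.47 ± 0.26, adjusted p = 0.00054). Nppa (ANP), in contrast, had 712, 951 and 1012 FPKM in isoproterenol hearts, against 541, 750.5 and 1087 FPKM in control hearts, which overlapped (0.21 ± 0.30, adjusted p = 0.62). Corin, the protease that activates ANP, rose (0.53 ± 0.11, adjusted p = 0.0014), and so did the clearance receptor Npr3 (0.43 ± 0.11, adjusted p = 0.0083; 0.33, adjusted p = 0.053, without control 2). Of 26 tested genes of the hypertrophy list 8 rose and 2 fell. Rcan1, a calcineurin target, fell as deposited (-0.31 ± 0.08, adjusted p = 0.0065) but not after rescaling (-0.19, adjusted p = 0.091).

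**Figure D3:**
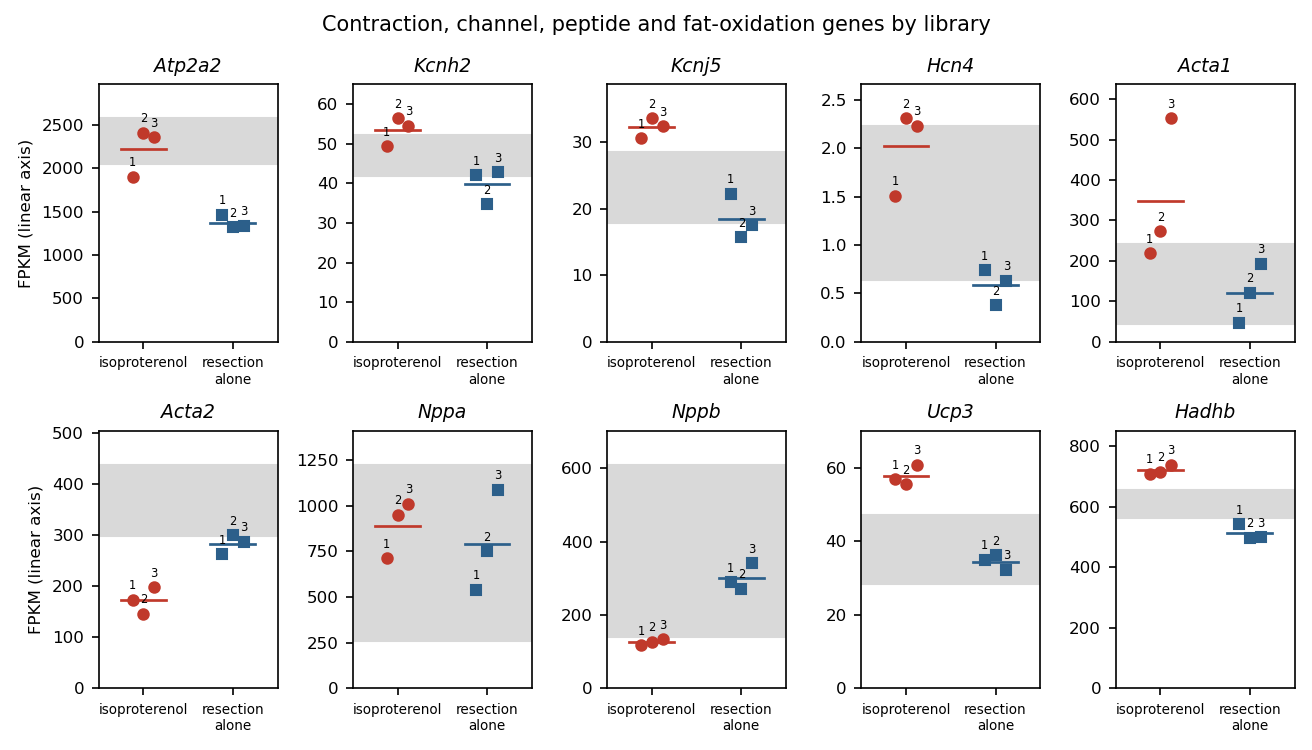
FPKM on linear axes from 0 for 10 heart genes, drawn as in the plot of cAMP and clock genes: isoproterenol libraries left, resection-alone libraries right, bars for means of 3 and a grey band over the 15 anti-arrhythmic libraries. Atp2a2 and Hadhb lie above the controls, Nppb and Acta2 below them, and the Nppa groups overlap.

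Many genes of fat oxidation rose. Of 36 genes, all tested, 19 rose and 1 fell, where 8.61% and 26.2% of all genes did, with a median of 0.23. Against the anti-arrhythmic drugs 16 were higher and 0 lower, where 9.75% and 13.4% of all genes were. The count of rises was 28 after rescaling and 13 without control 2.

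Hadhb, a subunit of the mitochondrial trifunctional protein, had 711, 717 and 740.2 FPKM in isoproterenol hearts, against 542, 498 and 499.9 FPKM in control hearts (log2 change 0.49 ± 0.05, adjusted p = 9.8e-06), and its partner Hadha changed alike (0.44 ± 0.05, adjusted p = 2.2e-05). Acadm, which starts the oxidation of medium chains, had 391.97, 391 and 396 FPKM in isoproterenol hearts, against 298, 275 and 266 FPKM in control hearts (log2 change 0.49 ± 0.05, adjusted p = 1.4e-05). The libraries of each group lay close together and the groups were separate for all 3 genes. Etfdh (0.52), Acsl1 (0.51) and Acadvl (0.46) rose by similar amounts. Ucp3, an uncoupling protein of muscle mitochondria, had 57.0, 55.7 and 60.9 FPKM in isoproterenol hearts, against 35.1, 36.3 and 32.3 FPKM in control hearts (log2 change 0.73 ± 0.13, adjusted p = 0.00052), and exceeded the anti-arrhythmic mean (0.62 ± 0.10, adjusted p = 0.00034). Angptl4, an inhibitor of lipoprotein lipase, was the single member that fell (-0.47 ± 0.14, adjusted p = 0.016; -0.41 to -0.39, adjusted p = 0.064 to 0.073, without any one of isoproterenol 2, isoproterenol 3 or control 2; rescaled -0.35, adjusted p = 0.063). Lpin1, a lipid phosphatase and coactivator, was among the 15 largest rises, with 20.7, 19.3 and 22.9 FPKM in isoproterenol hearts, against 12.02, 10.8 and 11.2 FPKM in control hearts (log2 change 0.83 ± 0.12, adjusted p = 0.00011).

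Of 37 oxidative phosphorylation genes 11 rose and 0 fell, where 8.61% and 26.2% of all genes did. Among the rises were Sdha (0.43 ± 0.06, adjusted p = 6.2e-05), Ndufs1 (0.39 ± 0.05, adjusted p = 6.1e-05) and Atp5a1 (0.39 ± 0.06, adjusted p = 0.00012). Atp5b, of the ATP synthase, had 3218, 3433 and 3394 FPKM in isoproterenol hearts, against 2854, 2575 and 2636 FPKM in control hearts, every isoproterenol value above every control (log2 change 0.32 ± 0.06, adjusted p = 0.00088). The count of rises was 25 once a trend with transcript length was removed and 5 without any one of 3 libraries (isoproterenol 2, isoproterenol 3 or control 3). Of 27 tested glycolysis genes 8 rose and 4 fell, where 8.61% and 26.2% of all genes did. The rises were 4 without isoproterenol 2 or isoproterenol 3 and 5 without control 3. Eno3, the muscle enolase, had 1175, 1295 and 1269 FPKM in isoproterenol hearts, against 878, 893 and 807 FPKM in control hearts (log2 change 0.54 ± 0.07, adjusted p = 7.2e-05), and was also above the anti-arrhythmic mean (0.52 ± 0.06, adjusted p = 1.6e-05), while the general form Eno1 fell as deposited (-0.24 ± 0.06, adjusted p = 0.0073; rescaled -0.13, adjusted p = 0.18). Pfkm, the muscle phosphofructokinase, rose (0.45 ± 0.06, adjusted p = 2.9e-05), as did Pdk2, which brakes pyruvate oxidation (0.46 ± 0.07, adjusted p = 0.00011), and Pfkp, a form of other tissues, fell as deposited (-0.18 ± 0.06, adjusted p = 0.02; -0.17 to -0.14, adjusted p = 0.056 to 0.084, without any one of isoproterenol 1, control 1 or control 2; rescaled -0.06, adjusted p = 0.46).

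FoxO factors drive protein breakdown and autophagy. Of 28 tested genes of this list 10 rose (16 after rescaling) and 1 fell, where 8.61% and 26.2% of all genes did. Against the anti-arrhythmic drugs 13 were higher and 3 lower, where 9.75% and 13.4% of all genes were. Fbxo32, a muscle ubiquitin ligase known as atrogin-1, had 17.97, 14.1 and 17.8 FPKM in isoproterenol hearts, against 10.1, 10.6 and 8.74 FPKM in control hearts (log2 change 0.70 ± 0.12, adjusted p = 0.00036). Foxo3 had 15.6, 14.1 and 14.9 FPKM in isoproterenol hearts, against 10.5, 10.2 and 10.9 FPKM in control hearts (log2 change 0.46 ± 0.06, adjusted p = 7e-05). Both were without overlap, and both were above the anti-arrhythmic mean, Fbxo32 by 0.41 ± 0.09, adjusted p = 0.0041, and Foxo3 by 0.20 (adjusted p = 0.0073; 0.17, adjusted p = 0.062, without isoproterenol 1; 0.13, adjusted p = 0.1, with a Y-linked covariate). Ulk1, which starts autophagy, and Sesn1, an inhibitor of mTORC1, rose (0.31 ± 0.06, adjusted p = 0.001; 0.40 ± 0.08, adjusted p = 0.00083), while Ddit4, another mTORC1 inhibitor, fell (-0.65 ± 0.17, adjusted p = 0.006). Pik3ip1, a brake on PI3 kinase, missed the threshold against the control (0.38 ± 0.18, adjusted p = 0.11) but lay above the anti-arrhythmic groups, with 39.5, 26.2 and 29.2 FPKM in isoproterenol hearts against group means of 9.40 to 14.5 FPKM (1.29 ± 0.14, adjusted p = 1.2e-05).

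Genes of cell division fell. Of 37 mitosis genes, all tested, 35 fell and 0 rose, against 26.2% of all genes, with a median of -0.82. The same count, 35, was found after rescaling and after removal of the length trend, and 34 or 35 with any 1 library left out. Against the anti-arrhythmic drugs 35 were lower as well (median -0.64).

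Ube2c, the ubiquitin carrier of the anaphase-promoting complex, had 26.5, 24.9 and 18.5 FPKM in isoproterenol hearts, against 56.0, 73.0 and 61.6 FPKM in control hearts. Every isoproterenol value lay far under the lowest control (log2 change -1.42 ± 0.13, adjusted p = 4.9e-06). Ccnb1, cyclin B1, had 5.82, 5.45 and 4.51 FPKM in isoproterenol hearts, against 13.02, 13.7 and 14.3 FPKM in control hearts (log2 change -1.24 ± 0.12, adjusted p = 4.9e-06), and Cks2, a small subunit of the cyclin kinase, had 12.8, 14.3 and 11.3 FPKM in isoproterenol hearts, against 27.1, 34.9 and 30.3 FPKM in control hearts (log2 change -1.20 ± 0.12, adjusted p = 4.9e-06). The groups were far apart for each, and isoproterenol library 3 was the lowest of the 6. Cdc20 (-1.16), Aurka (-1.18), Birc5 (-1.18), Cdk1 (-1.07), Plk1 (-1.07) and the proliferation marker Mki67 (-0.93) changed by similar amounts, with adjusted p of 2.4e-04 or less as deposited and rescaled. The 2 members that were not called were Pttg1, securin (-0.11 ± 0.08, adjusted p = 0.29), and Cenpa, a centromere histone (-0.31 ± 0.13, adjusted p = 0.06). In whole tissue, fewer cells of a type and less RNA per cell cannot be told apart.

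Mitotic promoters carry the cell cycle homology region (TTTGAA or TTTAAA) near CCAAT boxes. Of 31 members with a RefSeq promoter 25 held CCAAT in the same window on either strand (80.6%, against 34.5% of all promoters), 11 held TTTGAA (35.5% against 16.3%) and 5 held TTTAAA (16.1% against 12.1%). The stretches of 4 of the most changed members are shown with both motifs in capitals; a motif on the other strand reads ATTGG or TTCAAA.
Ube2c, chr2:164769834-164769918 (+): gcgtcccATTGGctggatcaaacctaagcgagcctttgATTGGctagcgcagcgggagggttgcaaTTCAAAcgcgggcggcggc
Ccnb1, chr13:100786517-100786590 (-): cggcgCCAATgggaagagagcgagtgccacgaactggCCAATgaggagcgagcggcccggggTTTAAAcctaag
Cdc20, chr4:118437344-118437403 (-): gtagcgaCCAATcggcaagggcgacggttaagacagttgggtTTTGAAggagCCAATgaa
Cdk1, chr10:69352913-69353002 (-): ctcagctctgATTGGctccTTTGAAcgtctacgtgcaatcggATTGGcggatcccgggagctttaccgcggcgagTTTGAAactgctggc
Each stretch holds at least 2 CCAAT boxes beside the cell cycle homology region.

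Genes of DNA replication fell too: of 36 listed genes 35 were tested, and 33 fell while 0 rose (median -0.59; 29 lower than under the anti-arrhythmic drugs). Rrm2, the inducible subunit of ribonucleotide reductase, had 20.3, 16.9 and 16.5 FPKM in isoproterenol hearts, against 38.3, 48.4 and 53.3 FPKM in control hearts (log2 change -1.33 ± 0.14, adjusted p = 1.2e-05). Pcna, the polymerase clamp, had 51.8, 55.2 and 44.5 FPKM in isoproterenol hearts, against 81.7, 89.0 and 86.2 FPKM in control hearts (log2 change -0.76 ± 0.08, adjusted p = 1.5e-05). The groups were separate for both. The 6 subunits Mcm2 to Mcm7 of the replicative helicase fell by 0.36 to 0.64 on the log2 scale, and the S-phase factor E2f1 fell too (-0.80 ± 0.10, adjusted p = 2.2e-05). Pola1 and Ccne2 were the 2 not called (adjusted p = 0.11 and 0.13).

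Of 17 tested genes that hold the cycle back 7 fell, where 26.2% of all genes fell, and 1 rose, where 8.61% did: the pocket protein gene Rbl2 (0.24 ± 0.09, adjusted p = 0.041; 0.21 to 0.26, adjusted p = 0.059 to 0.13, without any one of isoproterenol 1, isoproterenol 3, control 1, control 2 or control 3). Cdkn1a, the p21 inhibitor and a p53 target, had 21.2, 16.6 and 16.95 FPKM in isoproterenol hearts, against 43.5, 49.3 and 49.6 FPKM in control hearts (log2 change -1.34 ± 0.10, adjusted p = 7.1e-07). No isoproterenol value came near a control, and it lay below every anti-arrhythmic library as well (-1.09 ± 0.08, adjusted p = 1.9e-07). Cdkn2c (-0.69 ± 0.09, adjusted p = 2.9e-05), Cdkn2d (-0.61 ± 0.11, adjusted p = 0.00049) and Cdkn1c (-0.41 ± 0.09, adjusted p = 0.0014) fell as well. Dlk1, an imprinted growth regulator, had 15.7, 11.6 and 5.89 FPKM in isoproterenol hearts, against 16.04, 17.02 and 30.1 FPKM in control hearts (log2 change -0.91 ± 0.25, adjusted p = 0.01; -0.63 to -0.55, adjusted p = 0.069 to 0.079, without either isoproterenol 3 or control 3), with all isoproterenol values below the controls. Gadd45b fell (-1.05 ± 0.15, adjusted p = 9.1e-05), and Gadd45a, of the same stress-response family, was not called against the control (0.24 ± 0.12, adjusted p = 0.14) but was higher than under the anti-arrhythmic drugs (0.98 ± 0.10, adjusted p = 3.4e-06). Of 22 p53 targets 11 fell and 1 rose, with Bax at -0.57 ± 0.08, adjusted p = 7.8e-05 and Trp53 itself at -0.37 ± 0.07, adjusted p = 0.00045.

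**Figure D4:**
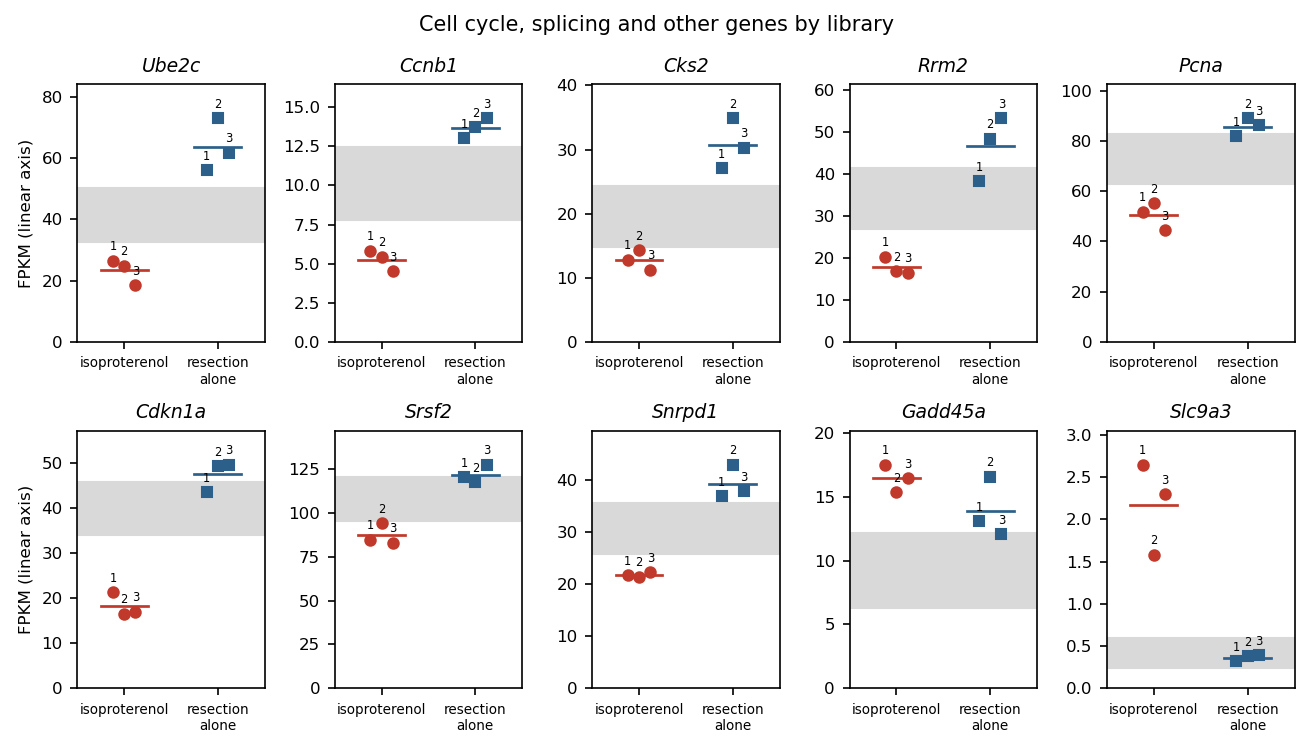
FPKM on linear axes from 0 for 10 genes of the cell cycle, splicing and other functions, drawn as in the plot of cAMP and clock genes. Isoproterenol values of Ube2c, Ccnb1, Rrm2 and Cdkn1a lie below all controls and below the anti-arrhythmic band; those of Slc9a3 lie above both.

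Most genes of RNA processing fell. Of 35 tested splicing genes 24 fell and 4 rose, and 22 were lower and 1 higher than under the anti-arrhythmic drugs. The 8 SR proteins, which mark exons for splicing, all fell, as deposited and rescaled, and 7 of them were lower than under the anti-arrhythmic drugs. The 7 listed hnRNPs, which bind nascent RNA, fell too as deposited (5 rescaled). Srsf2 had 84.7, 94.1 and 83.1 FPKM in isoproterenol hearts, against 120.3, 118 and 128 FPKM in control hearts (log2 change -0.48 ± 0.06, adjusted p = 2.4e-05), and the spliceosome core gene Snrpd1 had 21.8, 21.4 and 22.4 FPKM in isoproterenol hearts, against 36.9, 43.1 and 37.95 FPKM in control hearts (log2 change -0.82 ± 0.08, adjusted p = 4.9e-06). Values within each group lay close together and did not overlap. The regulators of muscle splicing Rbm20 (0.31 ± 0.08, adjusted p = 0.0089), Rbm24 (0.26 ± 0.07, adjusted p = 0.011; 0.20 to 0.21, adjusted p = 0.058 to 0.065, without either control 2 or control 3) and Rbfox1 (0.44 ± 0.09, adjusted p = 9e-04) rose. Clk1, a kinase of SR proteins, fell against the control (-0.77 ± 0.11, adjusted p = 5.9e-05) and was not called against the anti-arrhythmic groups (0.20 ± 0.08, adjusted p = 0.091).

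Of 37 cytosolic ribosomal protein genes 36 fell as deposited, 16 after rescaling and 3 were lower than under the anti-arrhythmic drugs. These are short transcripts, and short transcripts were lower throughout: the median change was -0.16 in the shortest genes by transcript length (1804 bases or less, 1 of 4 bins of like size), where 37.2% fell, and -0.02 in the longest bin, where 15.6% fell. The same medians were 0.01 and -0.03 against the anti-arrhythmic groups. With the length trend removed 33 ribosomal genes fell. The part of transcript length in the ribosomal result was not tested further. In the stress response 14 of 31 tested genes fell and 2 rose: Atf4 (-0.38 ± 0.07, adjusted p = 0.00033) and the chaperone Hsp90aa1 (-0.65 ± 0.09, adjusted p = 8.8e-05) fell, and Herpud1, of protein disposal from the endoplasmic reticulum, rose (0.46 ± 0.08, adjusted p = 0.00028).

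Genes of antigen presentation fell, and control 1 stood apart. Of 20 tested class I genes 17 fell (13 after rescaling), with a median of -0.89. Of 7 tested class II genes 7 fell (median -1.58), where 26.2% of all genes fell. H2-DMa, a class II gene, was under 1 FPKM in isoproterenol libraries 1 and 3 and passed the filter through the controls. The class II count is thus in part fixed by the filter. Without control 1, 12 class I and 5 class II genes fell, and without isoproterenol library 1 or 3 the class II count was 5 as well. Against the anti-arrhythmic drugs 1 class I gene was higher, 1 was lower, and no class II gene was called.

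B2m, the light chain of class I molecules, had 105, 129 and 89.95 FPKM in isoproterenol hearts, against 839, 404 and 400.3 FPKM in control hearts. Control 1 was far above the other controls, and all 3 exceeded the isoproterenol libraries (log2 change -2.26 ± 0.50, adjusted p = 0.0023; without control 1 -1.90). H2-K1, a class I heavy chain, had 38.6, 61.8 and 42.4 FPKM in isoproterenol hearts, against 569, 199 and 205 FPKM in control hearts (log2 change -2.59 ± 0.68, adjusted p = 0.0074). Psmb9, of the immunoproteasome, had 4.16, 5.02 and 3.88 FPKM in isoproterenol hearts, against 27.7, 14.1 and 11.3 FPKM in control hearts (log2 change -1.71 ± 0.34, adjusted p = 0.0011). Neither B2m (-0.65 ± 0.39, adjusted p = 0.24) nor H2-K1 (-0.78 ± 0.53, adjusted p = 0.3) was called against the anti-arrhythmic groups. H2-Q6, H2-Q7, H2-Q8 and H2-Q9, which gave 4 of the 15 largest falls (-2.58 ± 0.82, adjusted p = 0.02; -2.57 to -2.09, adjusted p = 0.056 to 0.081, without any one of isoproterenol 1, isoproterenol 3 or control 1 for H2-Q6, -2.69 ± 0.78, adjusted p = 0.013; -2.41 to -2.21, adjusted p = 0.056 to 0.059, without either isoproterenol 3 or control 1 for H2-Q9, -2.74 and -3.53 for H2-Q7 and H2-Q8), are near-identical copies, and their values are uncertain. The same holds in part for H2-D1 (-1.92 ± 0.44, adjusted p = 0.003) and for Tgtp2, an interferon-induced GTPase (-2.10 ± 0.48, adjusted p = 0.0028). H2-Q6, H2-Q8, H2-Q9 and Tgtp2 were under 1 FPKM in most isoproterenol libraries and passed the filter through the controls. Their place among the falls, and any list count that holds them, is thus in part fixed by the filter. Cd74, the class II invariant chain, had 6.39, 12.9 and 8.59 FPKM in isoproterenol hearts, against 54.6, 26.2 and 25.8 FPKM in control hearts (log2 change -1.79 ± 0.48, adjusted p = 0.0086).

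Of 25 tested interferon response genes 22 fell (median -0.61), where 26.2% of all genes did. The count was 18 after rescaling and 13 without control 1. Against the anti-arrhythmic drugs 1 gene was lower. Oas2 was under 1 FPKM in every isoproterenol library and passed the filter through the controls alone. The count of falls is thus in part fixed by the filter. Irf7, the interferon-induced factor, had 4.2, 4.32 and 2.98 FPKM in isoproterenol hearts, against 14.02, 8.33 and 5.90 FPKM in control hearts (log2 change -1.04 ± 0.30, adjusted p = 0.012; -0.91 to -0.74, adjusted p = 0.06 to 0.068, without either isoproterenol 3 or control 1). Ifitm3, an antiviral membrane protein, had 114, 138 and 115 FPKM in isoproterenol hearts, against 198, 234 and 172 FPKM in control hearts (log2 change -0.71 ± 0.11, adjusted p = 0.00017). For Irf7 control 1 was the highest, for Ifitm3 control 2. Isg15, a ubiquitin-like protein, was not called (-0.55 ± 0.27, adjusted p = 0.12).

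The core of the interferon-stimulated response element, GAAA and again GAAA after a gap of 2 bases, was in 9 of 18 promoters of the list (50%), against 3.04% of all promoters. The 3 stretches are shown because they hold 1 to 3 copies; the matches, which overlap in Isg15 and Bst2, are in capitals.
Isg15, chr4:156200864-156200903 (-): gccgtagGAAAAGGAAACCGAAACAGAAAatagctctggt
Bst2, chr8:71537577-71537612 (-): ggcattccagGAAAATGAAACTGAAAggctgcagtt
Igtp, chr11:58199511-58199545 (+): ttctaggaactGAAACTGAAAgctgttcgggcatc
Bst2 (-0.89 ± 0.20, adjusted p = 0.0026) and Igtp (-1.24 ± 0.42, adjusted p = 0.029; -1.20 to -0.68, adjusted p = 0.063 to 0.18, without any one of isoproterenol 1, isoproterenol 3 or control 1) fell.

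Most macrophage genes fell. Of 20 tested markers 16 fell (median -1.20), where 26.2% of all genes did. Against the anti-arrhythmic drugs 11 were lower, where 13.4% of all genes were. The marker list summed to 247, 284 and 147 FPKM in isoproterenol hearts and 373, 793 and 822 FPKM in control hearts, and 215 to 575 FPKM across the anti-arrhythmic libraries. Cx3cr1, the fractalkine receptor of resident macrophages, had 3.85, 3.44 and 2.79 FPKM in isoproterenol hearts, against 7.15, 7.77 and 7.34 FPKM in control hearts, with close values inside each separate group (log2 change -0.96 ± 0.10, adjusted p = 9.8e-06). Csf1r, the receptor they need to live, had 10.01, 9.27 and 7.62 FPKM in isoproterenol hearts, against 17.2, 20.8 and 21.1 FPKM in control hearts (log2 change -1.06 ± 0.13, adjusted p = 2.9e-05; against the drugs -0.57 ± 0.10, adjusted p = 0.00062). C1qa, of complement, had 29.5, 35.1 and 25.9 FPKM in isoproterenol hearts, against 66.4, 122 and 78.5 FPKM in control hearts (log2 change -1.49 ± 0.21, adjusted p = 7.8e-05; against the drugs -0.62 ± 0.16, adjusted p = 0.011; -0.52, adjusted p = 0.09, without isoproterenol 3). These 3 were called with any 1 library left out. Ctss, a protease of antigen-presenting cells, was among the 15 largest falls, with 18.2, 17.6 and 4.99 FPKM in isoproterenol hearts, against 24.4, 75.2 and 93.0 FPKM in control hearts (log2 change -2.13 ± 0.59, adjusted p = 0.0094; -1.58, adjusted p = 0.068, without isoproterenol 3), and isoproterenol library 3 was far below the rest.

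Neutrophil genes were uneven in the control. S100a9, an abundant neutrophil protein, had 2.75, 3.25 and 3.10 FPKM in isoproterenol hearts, against 9.24, 62.2 and 6.43 FPKM in control hearts (log2 change -2.07 ± 0.48, adjusted p = 0.0032; -1.11, adjusted p = 0.0018, without control 2). Its partner S100a8 gave -1.95 ± 0.46, adjusted p = 0.0036; -1.08, adjusted p = 0.0055, without control 2. In a limma fit to only the groups compared, neither S100a9 (adjusted p = 0.061) nor S100a8 (adjusted p = 0.062) was called. Of 16 listed markers 6 passed the filter and 5 of those fell. Skeletal muscle genes, which the heart hardly expresses, gave some of the largest falls, and control 3 had the highest levels: Mylpf, a light chain of fast muscle, had 2.50, 2.36 and 2.34 FPKM in isoproterenol hearts, against 8.65, 14.7 and 62.7 FPKM in control hearts (log2 change -2.65 ± 0.72, adjusted p = 0.0092; -1.85, adjusted p = 0.062, without control 3). Tnnc2 (-3.04 ± 0.78, adjusted p = 0.0062), Tnnt3 (-2.2 ± 0.64, adjusted p = 0.013; -1.48, adjusted p = 0.087, without control 3) and Myh3 (-2.11 ± 0.52, adjusted p = 0.0046) are genes of skeletal muscle too. Of 16 listed markers 9 passed the filter and 8 of those fell, 3 without control 3. Myh3 was under 1 FPKM in every isoproterenol library and passed the filter through the controls alone, so the count of falls is in part fixed by the filter and is a description only. The marker sum was 33.8, 29.7 and 46.8 FPKM in isoproterenol hearts and 62.0, 105 and 271 FPKM in control hearts, and its part in other results was not tested.

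For matrix genes the controls were uneven. Of 20 tested collagen genes 2 fell and 1 rose. With 1 library left out, 15 fell without control 1 and 0 without isoproterenol 1, isoproterenol 3, control 2 or control 3; 0 also fell after rescaling and in the fit of the compared groups alone. Of 34 tested matrix and matricellular genes 11 fell, where 26.2% of all genes did. That count was 22 without control 1, 4 without control 2 or control 3 and 5 without isoproterenol 3, and it was 5 after rescaling and 4 in the fit of the compared groups alone. Spp1, osteopontin, of wound macrophages, had 45.9, 31.1 and 0.96 FPKM in isoproterenol hearts, against 2.39, 221 and 262 FPKM in control hearts, and was not called (-2.02 ± 1.6, adjusted p = 0.34). Control 1 and isoproterenol library 3 were both low. Col1a1, of fibrillar collagen, had 433, 490.5 and 430.1 FPKM in isoproterenol hearts, against 374, 937 and 833 FPKM in control hearts (-0.56 ± 0.25, adjusted p = 0.089), and here control 1 lay below all 3 isoproterenol hearts. Postn, periostin of activated fibroblasts, had 188, 154 and 145 FPKM in isoproterenol hearts, against 206, 303 and 265 FPKM in control hearts, without overlap (log2 change -0.66 ± 0.15, adjusted p = 0.0027), and Vcan, versican, had 7.52, 7.11 and 6.81 FPKM in isoproterenol hearts, against 9.74, 14.5 and 12.3 FPKM in control hearts (log2 change -0.68 ± 0.16, adjusted p = 0.0031). Col4a5, of basement membrane, was the collagen that rose (0.43 ± 0.09, adjusted p = 0.002).

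**Figure D5:**
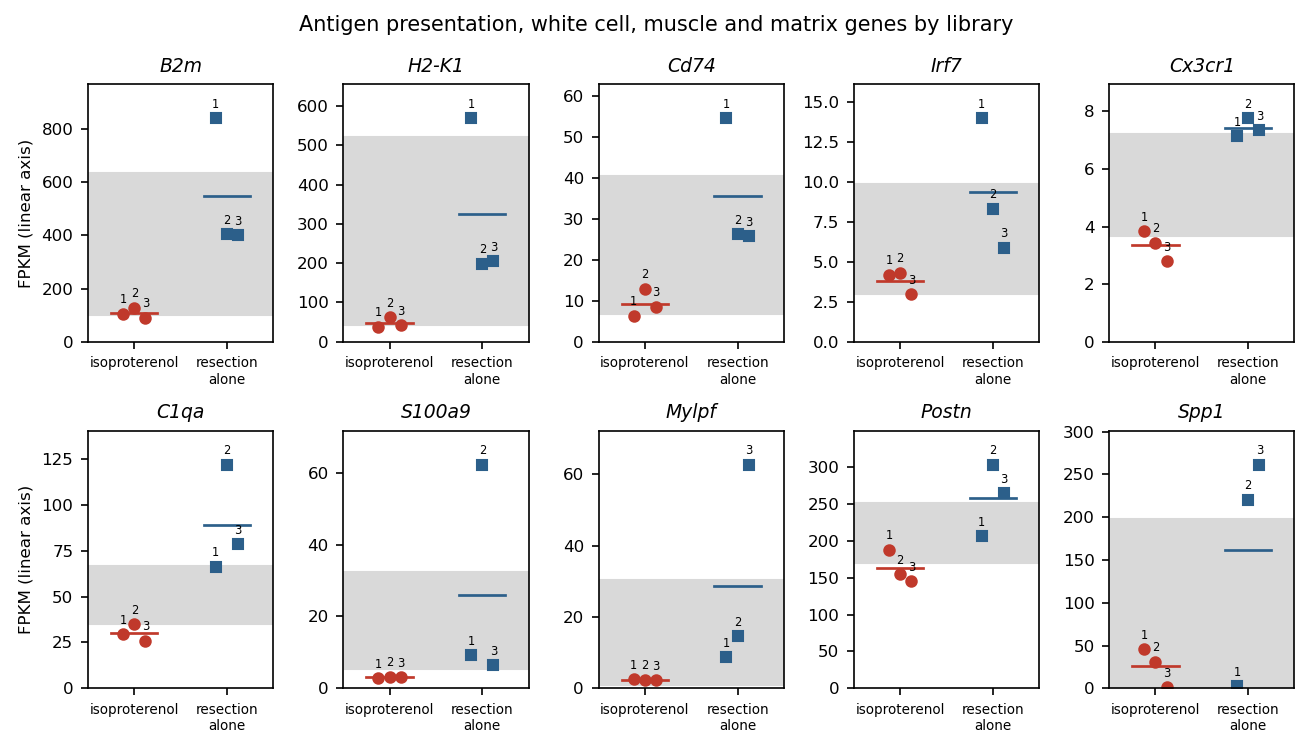
FPKM on linear axes from 0 for 10 genes of antigen presentation, white cells, skeletal muscle and matrix, drawn as in the plot of cAMP and clock genes, with library numbers beside the points. Control 1 is highest for B2m, H2-K1, Cd74 and Irf7, control 2 for S100a9 and control 3 for Mylpf; Cx3cr1 and C1qa are separate in all libraries.

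Of 30 tested growth factor genes 2 rose and 5 fell (3 after rescaling), where 8.61% of all genes rose and 26.2% fell: Fgf1 rose (0.36 ± 0.09, adjusted p = 0.0055), and Igf1 (-0.58 ± 0.13, adjusted p = 0.0031) and Vegfa (-0.35 ± 0.07, adjusted p = 0.00072) fell, with Igf2 not called (-0.15 ± 0.10, adjusted p = 0.23). Of 25 tested genes of the TGF-β list 8 fell, a share near that of all genes, and 2 fell after rescaling, 4 without isoproterenol 3, 5 without control 2 and 3 without control 3. Gdf15, a stress-induced cytokine, had 1.68, 1.5 and 1.79 FPKM in isoproterenol hearts, against 3.72, 3.54 and 5.39 FPKM in control hearts (log2 change -0.96 ± 0.24, adjusted p = 0.0056), also below the anti-arrhythmic mean (-0.89 ± 0.19, adjusted p = 0.0024). The matricellular genes Ctgf and Thbs1 were set apart from the anti-arrhythmic groups alone: Ctgf was not called against the control (-0.14 ± 0.23, adjusted p = 0.66) and was lower than under the anti-arrhythmic drugs (-1.04 ± 0.18, adjusted p = 0.00043), and Thbs1 gave -0.54 and -1.29 (adjusted p = 0.16 and 0.00063). Of 21 cholesterol synthesis and uptake genes 6 fell (3 without isoproterenol 3 or control 3) and 2 rose against the control, shares near those of all genes. Compared with the anti-arrhythmic drugs 10 were lower, where 13.4% of all genes were.

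Single genes outside these groups were among the 15 largest rises. Slc9a3, a sodium-proton exchanger known from kidney and gut, had 2.65, 1.58 and 2.30 FPKM in isoproterenol hearts, against 0.32, 0.38 and 0.39 FPKM in control hearts. It was at or under 0.60 FPKM in every library without isoproterenol, and its change was 1.21 ± 0.11, adjusted p = 4.9e-06 against the control and 1.22 ± 0.09, adjusted p = 1.9e-07 against the anti-arrhythmic drugs. Nt5c1a, which makes adenosine from AMP, had 2.77, 5.35 and 5.64 FPKM in isoproterenol hearts, against 1.27, 1.07 and 0.95 FPKM in control hearts (log2 change 1.37 ± 0.25, adjusted p = 6e-04) and was not called against the drugs (-0.20 ± 0.19, adjusted p = 0.49). Lpar3, a lysophosphatidic acid receptor, had 11.95, 12.7 and 10.9 FPKM in isoproterenol hearts, against 7.18, 4.32 and 5.90 FPKM in control hearts (log2 change 0.94 ± 0.15, adjusted p = 0.00023). Pakap, an anchor of kinase A, rose (1.14 ± 0.19, adjusted p = 0.00028), and so did Rasd2, a small GTPase of the Ras family (0.99 ± 0.15, adjusted p = 0.00011), Parm1, a membrane protein of muscle (0.90 ± 0.14, adjusted p = 0.00014), Fam78a (0.86 ± 0.10, adjusted p = 1.7e-05) and Snai3 (0.85 ± 0.20, adjusted p = 0.0029). Neither Pakap (-0.29 ± 0.15, adjusted p = 0.16) nor Parm1 (0.04 ± 0.11, adjusted p = 0.82) was called against the anti-arrhythmic groups. Group means of Pakap under those drugs were 8.99 to 12.5 FPKM, against 9.17 FPKM with isoproterenol. Rasd2 (0.82), Fam78a (0.86) and Snai3 (0.59) were higher than under the drugs, with adjusted p of 8.4e-05, 1.5e-06 and 0.0089. Both Slc9a3 and Snai3 were under 1 FPKM in every control and passed the filter through the isoproterenol libraries alone. Their place among the rises is thus in part fixed by the filter. Rit1, a small GTPase, was higher in both contrasts (0.63 ± 0.12, adjusted p = 0.00087 and 0.87 ± 0.09, adjusted p = 1.2e-05). Among genes lower in both were Ifrd1 (-0.47 and -0.91) and Tubb2a, a tubulin (-0.79 and -0.77).

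The genes most apart from the anti-arrhythmic groups varied in how they stood to the control. Tmem86a had 36.8, 37.6 and 40.6 FPKM in isoproterenol hearts, 32.2, 32.5 and 34.97 FPKM in control hearts and group means of 24.9 to 29.2 FPKM under the anti-arrhythmic drugs (0.20 ± 0.05, adjusted p = 0.0062 and 0.51 ± 0.04, adjusted p = 4.9e-07). Nes, nestin, had 19.99, 23.6 and 20.9 FPKM in isoproterenol hearts, against 24.03, 23.4 and 26.2 FPKM in control hearts (-0.18 ± 0.07, adjusted p = 0.053), and 28.4 to 39.4 FPKM across the anti-arrhythmic group means (-0.66 ± 0.06, adjusted p = 1.1e-06). The values of Nes lay close together in the isoproterenol and control hearts and were higher under each of the other drugs. Tmem100, of endothelium, overlapped in isoproterenol and control hearts (0.02 ± 0.14, adjusted p = 0.93) and was lower than under the anti-arrhythmic drugs (-0.99 ± 0.11, adjusted p = 1.2e-05). Mid1ip1, of fat synthesis, was higher in both contrasts (0.50 ± 0.11, adjusted p = 0.0024 and 0.90 ± 0.09, adjusted p = 3.4e-06), and so was Cdnf, a neurotrophic factor (0.70 ± 0.08, adjusted p = 2.2e-05 and 0.65 ± 0.06, adjusted p = 5.2e-06). Hnrnpa3, an RNA-binding protein, was lower in both (-0.39 ± 0.07, adjusted p = 0.00031 and -0.49 ± 0.05, adjusted p = 1e-05), as was Slmap, of the sarcolemma (-0.46 ± 0.09, adjusted p = 0.0013 and -0.68 ± 0.07, adjusted p = 1e-05). The largest losses in FPKM outside antigen presentation were in Tmsb10, an actin-binding peptide, with 807, 632 and 579 FPKM in isoproterenol hearts, against 999, 954 and 951 FPKM in control hearts (log2 change -0.54 ± 0.10, adjusted p = 0.00091), and in Ppia, a protein-folding enzyme, with 733, 717 and 652 FPKM in isoproterenol hearts, against 964, 987 and 996 FPKM in control hearts (log2 change -0.49 ± 0.07, adjusted p = 0.00011).

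Counts of the remaining lists stand beside the 8.61% of all genes that rose and the 26.2% that fell. Of 22 tested p53 targets Gtse1 (-1.0 ± 0.11, adjusted p = 1.7e-05) and Aen (-0.45 ± 0.06, adjusted p = 5.8e-05) fell beside Cdkn1a. Of 33 lysosome genes 14 fell and 1 rose; 9 fell after rescaling, 8 without isoproterenol 3, control 2 or control 3, 21 without control 1 and 4 without replicate 3 of both groups. Of 18 tested complement genes 9 fell. Of 20 YAP and TEAD targets 2 rose and 4 fell, with 2 falls after rescaling or without isoproterenol 3. Of 20 tested glucocorticoid-responsive genes 5 rose and 5 fell, and the falls were 2 after rescaling, 2 without isoproterenol 3 or control 2, and 3 without isoproterenol 2 or control 3. Of 15 tested genes of the thyroid hormone axis 5 rose (8 after rescaling) and 1 fell. Of 12 tested imprinted growth genes 0 rose and 5 fell, with 3 falls after rescaling and 2 without isoproterenol 3 or control 3. The mineralocorticoid receptor Nr3c2, in the glucocorticoid list, rose (0.68 ± 0.10, adjusted p = 9.8e-05), and Gata6, a heart transcription factor, rose as well (0.41 ± 0.08, adjusted p = 0.00086). Of markers of other cell types, 8 of 18 endothelial genes fell as deposited, 1 after rescaling, 4 without isoproterenol 2, control 1 or control 3 and 5 without isoproterenol 3, with Sox18, of endothelium, at -0.40 and -0.28. Of 16 fibroblast genes 8 fell (5 rescaled, 5 without isoproterenol 1 or control 2 and 4 without control 3), and the list summed to 2310, 2500 and 2380 FPKM in isoproterenol hearts and 2180, 3890 and 3560 FPKM in control hearts. Of 13 smooth muscle and pericyte genes 4 rose (2 without isoproterenol 3 or control 1) and 2 fell. Platelet genes fell in 6 of 7 tested, and in 3 without isoproterenol 3 or control 2, Ppbp by the most (-1.51 ± 0.29, adjusted p = 0.00083), and of 9 tested erythroid genes 1 rose, Sptb, a spectrin also made in muscle (0.80 ± 0.08, adjusted p = 7.4e-06). Of 5 tested lymphatic endothelial genes 1 rose and 4 were not called, around a median of -0.16; the riser was Prox1, which heart muscle also makes (0.48 ± 0.10, adjusted p = 0.0018). Of 10 tested epicardial genes 1 fell, Aldh1a2 (-0.24 ± 0.09, adjusted p = 0.037; -0.24 to -0.20, adjusted p = 0.065 to 0.13, without any one of isoproterenol 2, isoproterenol 3, control 1 or control 2), and 9 were not called. The median of that list was 0.36. In 2 of its uncalled members every isoproterenol library lay above every control, as in 12.1% of all genes.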

How the data were processed

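RNA of the heart apex was sequenced on BGISEQ-500, per the labels' protocols, and the authors deposited 1 table of FPKM values per gene and library. HISAT, Bowtie2 2.2.5 and mm9 are named in the submitters' processing notes; the roles of these tools, the counting program and the annotation are not given in the sources used here, and neither is whether reads shared by near-identical genes or by both strands were told apart. The protocol names oligo-dT selection or removal of ribosomal RNA without saying which was used. FPKM values hold no depth, and the absolute depth of the libraries is unknown. The steps between values of 26 low genes gave a relative depth of 0.968 to 1.01. Those genes were kept only if their values lay near whole multiples of 1 shared smallest value (tolerance 0.1 of the multiple). That choice favours a relative depth near 1, so whether the libraries had equal depth was not tested.

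From the deposited values log2(FPKM + 1) was computed, which understates the change of low genes. Genes at 1 FPKM or more in at least 3 of the 6 libraries were fitted with limma 3.58.1 (R 4.3.3) as 7 group means over all 21 libraries with a variance trend, so that the groups share 1 estimate of spread; values after ± are standard errors of the log2 difference. Adjusted p is Benjamini-Hochberg over 12124 genes, with 0.05 as the threshold. The labels do not say whether replicate numbers pair libraries, so the main fit used no block. Deviations of libraries of the same number correlated at -0.0458, 0.188 and -0.157, too few values to tell. Scripts were tested on simulated data.

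The 50 gene lists, the members and the tests were chosen with earlier results of these data known, and some genes were named after their values were seen. Named by rule were the 15 largest called changes each way on the log2 scale and the 5 largest FPKM differences each way (groups not overlapping, called as deposited and rescaled), 3 members per list and the 10 of smallest p each way against the anti-arrhythmic groups. Transcript lengths are from GENCODE, matched through RefSeq, and promoters from RefSeq, GRCm38.p6. Motifs were searched in the 250 bases before a start. Alternatives were another pseudocount, other filters, rescaling by median of ratios, a fit to only the groups compared, one without the variance trend, one with robust moderation, the replicate number as a block, a Y-linked covariate and leaving out libraries.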

Additional observations from a re-analysis of the deposited data

Results flagged for a closer look

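These genes differed between isoproterenol and the mean of the 5 anti-arrhythmic groups, so that their change from the control was not the same under isoproterenol as under the other drugs (limma, adjusted over 12124 genes; adjusted p of 1.2e-05 or less). Higher with isoproterenol by the following log2 differences were Dbp (1.47), Slc9a3 (1.22), Gadd45a (0.98), Mid1ip1 (0.90), Rit1 (0.87), Per3 (0.84), Tef (0.77), Cdnf (0.65) and Tmem86a (0.51). Lower were Cdkn1a (-1.09), Acta2 (-1.05), Tmem100 (-0.99), Ifrd1 (-0.91), Tubb2a (-0.77), Slmap (-0.68), Nes (-0.66) and Hnrnpa3 (-0.49).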

How the results depend on the processing

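Against resection alone 4226 genes were called. The count ran from 2785 (without isoproterenol 3) to 4175 when 1 library was left out, and was 2148 without replicate 3 of both groups. With a Y-linked covariate it was 3351, made up of 783 rises and 2568 falls. The 1044 rises became 2140 under median-of-ratios rescaling, 582 without both replicates 3 and 702 to 1014 with 1 library out; the 3182 falls became 1467 rescaled, 1566 without both replicates 3 and 2043 (without isoproterenol 3) to 3207 with 1 library out. Against the anti-arrhythmic groups 2805 genes were called, and 1606 (without isoproterenol 3) to 3220 with 1 library out, 1706 with a Y-linked covariate and 1540 without both replicates 3. There the 1182 higher genes became 706 (without isoproterenol 1) to 1342 with 1 library out (765 without isoproterenol 3), 649 with the covariate and 736 without both replicates 3, and the 1623 lower genes became 841 (without isoproterenol 3) to 1878, 1057 and 804 in the same settings. The cause was not tested; fewer libraries also leave less to test with. Whether replicate numbers pair the libraries is not stated, and with the number as a block 4117 and 2709 genes were called. Of 204 gene values reported as called, 161 were called under every alternative run; the Y-linked covariate ended 11 of the calls.

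Signs of uncalled values turned as follows, in log2. Without both replicates 3, Atf3 was 0.10, Spp1 0.50, Tmem100 -0.14 and Ryr2 against the anti-arrhythmic groups -0.03. With 1 library out, Atf3 ranged from -0.43 to 0.01, Nppa from -0.04 to 0.47, Tmem100 from -0.10 to 0.14 and, against the anti-arrhythmic groups, Atp2a2 from -0.12 to 0.05, Nt5c1a from -0.35 to 0.06 and Ryr2 from -0.03 to 0.10. With the Y-linked covariate Cry1 was -0.01 and Nppa -0.25, and Pttg1 was 0 rescaled and 0.03 after the transcript length correction, an alternative chosen after seeing the data. Groups of 3 libraries, unequal scale factors and the absence of counts limit what can be called.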
